A study of Homo sapiens with 6 samples.

Results

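The AP-1 subunits and partners described here are 10 genes: FOS, FOSB, FOSL1 and FOSL2 of the FOS family, JUN, JUNB and JUND of the JUN family, and the partners ATF3, BATF3 and MAFF. They were taken by name, as every probe set to which the platform annotation gives a symbol of this set and no other gene. The rule uses names alone, while the set itself was chosen with earlier results of these data known. All 10 genes were measured, among 19775 genes in all, through 23 of the 54613 probe sets of the array. Each gene is described by its brightest probe set, the one with the highest mean over the 6 arrays, and its other probe sets are given beside it.

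AP-1 is a family of transcription factors that bind DNA as pairs, each protein holding its partner through a leucine zipper and the DNA through a basic region (bZIP). FOS proteins pair with JUN proteins on the TPA response element (TRE), whereas JUN also pairs with ATF proteins on the cyclic AMP response element (CRE). FOS is the classical immediate-early gene, switched on within minutes by growth factor receptors through ERK, while FOSL1 and FOSL2 are later and longer-lived members whose genes and proteins respond to lasting ERK activity. In tumor cells AP-1 is known for its control of secreted proteases, cytokines and cell migration.

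The study asked what accompanies acquired resistance to TAE684, an inhibitor of the receptor tyrosine kinase ALK, in neuroblastoma (NB) cells. RNA from parental SH-SY5Y cells, a TAE684-sensitive human NB line, and from SY5Y-TR1 cells, a resistant subline of it, was profiled on Affymetrix Human Genome U133 Plus 2.0 microarrays, 3 for each line. Both lines carry ALK F1174L and grew in RPMI medium with serum, to which TAE684 at 1 μM was added for SY5Y-TR1 cells. SY5Y-TR1 is a single expanded subclone, so that clone, resistance and the presence of the drug cannot be told apart. The arrays are called biological replicates, without a statement that they came from separate cultures. The p-values below thus compare the lines relative to the spread among these samples, which may differ from that among separate cultures. In bulk RNA, fewer cells that express a gene and less of its RNA per cell cannot be told apart.

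All values are on the log2 scale and come from robust multi-array average (RMA), and the number of arrays limits their precision. Arrays had medians of 5.56 to 5.59 and correlated with Pearson's r of 0.997 to 0.998 within a line and 0.959 to 0.960 between the lines, across probe sets. A background level of 6.34 was taken from 35 measured genes of unrelated tissues, as the 90th percentile of their means. A gene counted as higher or lower in SY5Y-TR1 at a Benjamini-Hochberg adjusted p under 0.05 in limma and a fold of at least 2. Where all arrays of the dimmer line lay at background, a lower bound on the fold is printed instead, namely the brighter mean over the background level. The NB label was checked on 10 measured markers of noradrenergic neuroblasts: 7 were lower in SY5Y-TR1, against 5.99% of all genes, and the mean of their log2 signals ran from 9.85 to 9.89 on the SH-SY5Y arrays and from 7.30 to 7.50 on the SY5Y-TR1 arrays. DDC, an enzyme of catecholamine synthesis, and CHGB, a protein of secretory granules, were at least 31.3-fold and at least 13.9-fold lower, and CHGA, another granule protein, was 12.9-fold lower with 1 resistant array above background. DBH lay at background in SY5Y-TR1 cells and was at least 7.56-fold lower. Other markers stayed above background on all SY5Y-TR1 arrays. Their means there were 10.65 for GATA3, 10.53 for ISL1, 9.48 for GATA2, 9.46 for PHOX2A and 7.05 for HAND2. Of these, ISL1 and HAND2 did not pass as lower. TH, the first enzyme of catecholamine synthesis and a defining marker, lay at background in both lines. None of the 5 Schwann cell, 7 blood cell and 8 endothelial markers measured passed, and 5, 6 and 8 of them lay at background in both lines. Of the 2 brightest markers of each of these types, SOX10, ERBB3, HBB, PECAM1 and CLDN5 were at background on all arrays, while CSF1R, a receptor of macrophages, read 6.06 ± 0.07 and 6.48 ± 0.05 (SD, n = 3 arrays each). The blood cell markers CD3E and MS4A1 also belong to the genes from which the background level was taken. What part the lower noradrenergic marker signal has in the results below was not tested.

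FOS and ATF3 were lower in resistant than in parental cells, by at least 7.26-fold and by 2.98-fold, and FOSL1 and FOSL2 were higher, by 2.51-fold and 2.50-fold, while the JUN genes differed by less than 2-fold. Of the 10 genes, 2 were higher (FOSL1 and FOSL2), 2 were lower (FOS and ATF3) and 6 did not pass. Over all genes tested, 5.36% were higher, 5.99% lower and 11.4% either, and with 10 genes the counts of 2 and 2 are read beside these shares only as a description. By the adjusted p alone, 5 genes were higher and 4 lower, against 28.5%, 24.3% and, in either direction, 52.8% of all genes, and only BATF3 did not pass. The 3 arrays of a line did not overlap with those of the other line in any of the 10 genes, which was also the case for 59.8% of all genes. The median log2 fold change of the 10 genes was 0.27, against 0.04 over all genes.

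**Figure D1:**
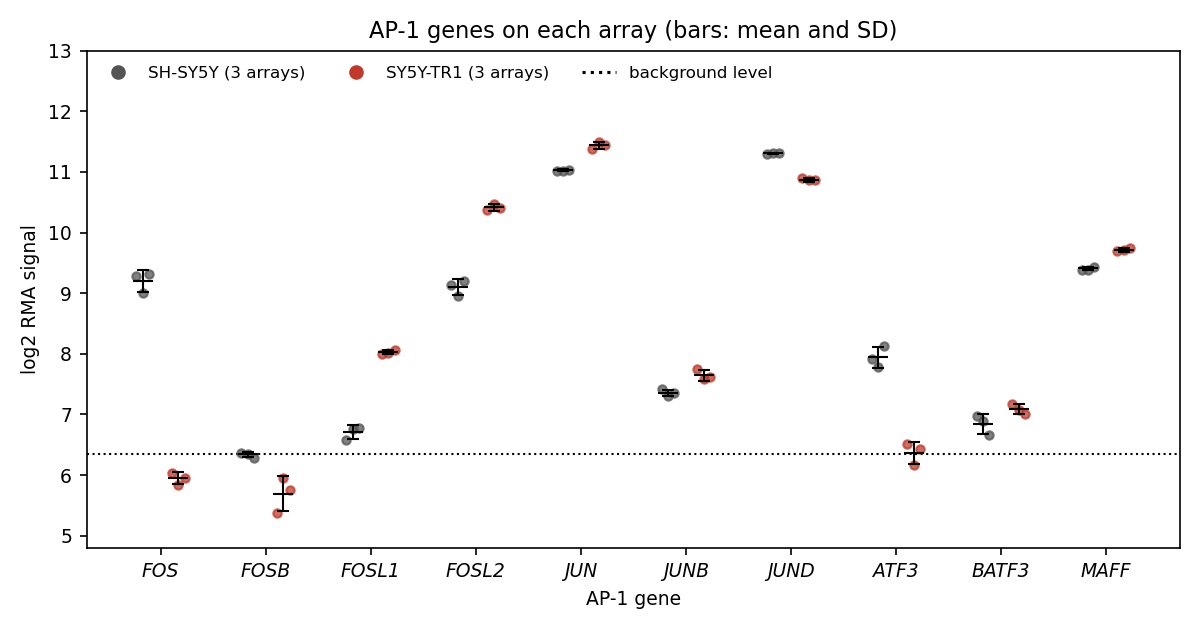
Log2 RMA signal (y axis) of the 10 AP-1 genes (x axis) on each of 3 SH-SY5Y arrays (grey) and 3 SY5Y-TR1 arrays (red), with mean and SD as bars; the dotted line is the background level of 6.34. FOS falls from 9.20 to below the background level and ATF3 from 7.94 to around it, FOSL1 and FOSL2 rise, and the JUN genes, BATF3 and MAFF stay within 2-fold; each gene is read through its own probe set, so heights are not compared between genes.

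FOS, which encodes the c-Fos subunit, had the largest change of the set. Its log2 signal was 9.28, 9.00 and 9.32 on the SH-SY5Y arrays and 6.03, 5.84 and 5.96 on the SY5Y-TR1 arrays. All parental arrays were well above background and all resistant arrays under it, so that FOS transcript in SY5Y-TR1 cells has only an upper bound from this probe set, the gene's only one. The means were 9.20 ± 0.18 and 5.95 ± 0.10 (SD, n = 3 arrays each), a decrease of at least 7.26-fold (log2 fold change -3.26 with a standard error of 0.10, limma adjusted p = 2.91e-07). FOSB, an immediate-early relative whose short splice form lacks much of the activation domain, lay close to background in SH-SY5Y cells, at 6.37, 6.35 and 6.29, and under it in SY5Y-TR1 cells, at 5.38, 5.95 and 5.75. No fold is given for FOSB, since only 2 of the 3 parental arrays and no resistant array were above background, and its log2 fold change of -0.65 (standard error 0.13, limma adjusted p = 0.00536) stayed under the limit.

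FOSL1 and FOSL2, which encode the FRA-1 and FRA-2 subunits and lack the C-terminal activation domain of c-Fos, both rose. FOSL1 read 6.58, 6.76 and 6.78 in SH-SY5Y cells and 8.0, 8.02 and 8.07 in SY5Y-TR1 cells. The parental values were just above background and the resistant values well clear of them. From 6.71 ± 0.11 to 8.03 ± 0.04 (SD, n = 3 arrays each), FOSL1 was 2.51-fold higher (log2 fold change 1.33 with a standard error of 0.06, limma adjusted p = 2.91e-06). FOSL2 read 9.14, 8.96 and 9.20 against 10.37, 10.48 and 10.41, every resistant array being over a log2 unit above every parental one. It was 2.50-fold higher, at 10.42 ± 0.06 against 9.10 ± 0.13 (SD, n = 3 arrays each; log2 fold change 1.32 with a standard error of 0.07, limma adjusted p = 5.02e-06).

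All probe sets of FOSL2 had a log2 fold change above 0, but of different size. Of 5, the brightest and 2 others passed as higher, with log2 fold changes of 1.07 for the second brightest, from 8.86 ± 0.03 to 9.93 ± 0.02 (SD, n = 3 arrays each), and 1.41 for another that lay at background on the parental arrays. A further probe set, also at background on the parental arrays, gave 0.52 and did not pass, and the dimmest lay at background on all arrays. The values 1.41 and 0.52 are fitted differences limited by background. With the mean of all 5 probe sets the log2 fold change of FOSL2 was 0.89, and FOSL2 no longer passed. FOSL1 was read by a single probe set, so that no other bears on it.

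The stretches of promoter shown here come from RefSeq windows (GRCh38.p14) of 250 bases before and 50 after a gene start, which were found for 8 of the 10 genes, in 10 windows, and not for FOSL1 and BATF3. They are shown because AP-1 genes are known to be targets of CREB, ATF and AP-1 proteins themselves. The 5 letters TGACG, which every CRE (TGACGTCA) also holds, occur on either strand in 7 of these 10 windows (70%). Over all genes they occur in 24.6% of 35114 windows. In the related lists described below, the share was 46.4% for other immediate-early genes and 33.3% for AP-1 target genes. It was 28.6% for other bZIP genes and 28.3% for the kinases and factors upstream. Positions are counted back from the start. In the FOS family, the core of a CRE lies about the same distance before the start of FOS, which fell, of FOSB, which did not pass, and of FOSL2, which rose. The capitals mark TGACG, at 64, 60 and 66 bases before the start. FOSL2 holds a further match 201 bases before its start, which is not shown.
FOS, chr14:75278739-75278793, plus strand: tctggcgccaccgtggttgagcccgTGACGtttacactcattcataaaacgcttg
FOSB, chr19:45467911-45467965, plus strand: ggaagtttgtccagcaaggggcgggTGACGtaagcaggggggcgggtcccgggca
FOSL2, chr2:28392767-28392821, plus strand: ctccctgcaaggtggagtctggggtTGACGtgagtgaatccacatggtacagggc
The letters are thus shared by genes that moved in opposite directions, and a match describes the sequence only. The TRE (TGANTCA, where N is any base) was found in 1 of the 10 windows, that of FOSL2, and in 7.71% of all windows. In FOSL2 it lies after the start, at bases 5 to 11, and is not shown. The serum response element, searched as the CArG box to which SRF binds, was found in none of the 10 and in 1.29% of all windows, which says nothing of sites outside these windows.

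The JUN family, whose proteins pair with every FOS protein, differed by less than 2-fold between the lines. JUN, the c-Jun gene, read 11.01, 11.02 and 11.04 in SH-SY5Y cells and 11.38, 11.50 and 11.44 in SY5Y-TR1 cells. JUNB, a weaker transactivator that can hold c-Jun back, read 7.42, 7.31 and 7.35 against 7.75, 7.59 and 7.61. JUND, the member that resting cells also express, read 11.30, 11.32 and 11.32 against 10.90, 10.86 and 10.86. JUN and JUNB thus read slightly above the parental arrays and JUND slightly below them on every resistant array, without overlap between the lines. The differences were 1.33-fold for JUN (log2 fold change 0.41 with a standard error of 0.05, limma adjusted p = 0.000240), 1.22-fold for JUNB (0.29, standard error 0.06, adjusted p = 0.00480) and 1.36-fold for JUND (-0.44, standard error 0.04, adjusted p = 6.82e-05). None reached 2-fold, and none therefore counted as higher or lower. The 4 probe sets of JUN gave log2 fold changes from 0.41 to 0.61, all of them above background on every array. For JUND, the other 3 probe sets lay at background on all arrays, so that its value rests on the brightest alone.

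Promoter stretches of the JUN family are shown for the same reason as those of the FOS family, with capitals for TGACATCA in JUN, TGACG in JUNB and the full CRE in JUND. TGACATCA, the variant site of the JUN promoter at which c-Jun and ATF2 bind, was added to the search after the sequences had been seen. It occurs in 2 of the 10 windows, those of JUN and ATF3, and in 2.61% of all windows. Its share was 10.2% for other bZIP genes, 3.57% for other immediate-early genes, 2.17% for upstream genes and 0% for target genes. The marked letters begin 67, 137 and 200 bases before the start. Further TGACG matches, 123 bases before the start of JUN and 86 before that of JUND, are not shown.
JUN, chr1:58784082-58784139, minus strand: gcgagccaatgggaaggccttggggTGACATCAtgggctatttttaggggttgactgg
JUNB, chr19:12791324-12791378, plus strand: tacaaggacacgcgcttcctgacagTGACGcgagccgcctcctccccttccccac
JUND, chr19:18281790-18281847, minus strand: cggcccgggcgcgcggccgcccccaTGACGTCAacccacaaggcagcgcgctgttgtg

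Among the partners, ATF3 fell and the small MAF gene MAFF and BATF3 did not pass. ATF3, a stress-induced repressor that pairs with JUN proteins, read 7.91, 7.79 and 8.13 in SH-SY5Y cells and 6.51, 6.16 and 6.43 in SY5Y-TR1 cells. The resistant arrays lay at or near background, 2 of the 3 above it, and the parental arrays clearly over it. ATF3 was 2.98-fold lower, at 6.37 ± 0.18 against 7.94 ± 0.17 (SD, n = 3 arrays each; log2 fold change -1.58 with a standard error of 0.12, limma adjusted p = 2.46e-05). Its other 2 probe sets lay at background on all arrays and had log2 fold changes of -0.39 and 0.02, so that the decrease rests on the brightest alone. With the mean of all 3 probe sets the log2 fold change was -0.65, and without probe sets whose names mark shared sequence it was -0.39, and ATF3 no longer passed in either case.

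BATF3, an inhibitory-type bZIP protein that needs a JUN partner, read 6.97, 6.90 and 6.66 in SH-SY5Y cells and 7.17, 7.07 and 7.01 in SY5Y-TR1 cells. The highest parental and the lowest resistant array, 6.97 and 7.01, nearly met, and the log2 fold change of 0.24 (standard error 0.09, limma adjusted p = 0.0571) passed neither limit. MAFF, which lacks an activation domain and pairs with FOS and NFE2-related proteins, read 9.39, 9.39 and 9.44 against 9.69, 9.71 and 9.74. Its difference of 1.24-fold (log2 fold change 0.31 with a standard error of 0.04, limma adjusted p = 0.000543) exceeded the spread between arrays but not the 2-fold limit, and its other probe set gave 0.06 (standard error 0.07). ATF3 and BATF3 are close neighbors on chromosome 1, with 1 protein-coding gene between them, and gave log2 fold changes of -1.58 and 0.24. FOS is followed on chromosome 14 by JDP2 and BATF, further bZIP genes, with no protein-coding gene between them. JDP2, a repressor of AP-1, read 7.96 ± 0.05 and 7.61 ± 0.07 (SD, n = 3 arrays each), a 1.28-fold difference that did not pass, and BATF lay at background in both lines. For ATF3 and MAFF the capitals mark TGACATCA, 123 bases before the start, and a full CRE, 54 bases before it. Both genes have a second window, in which none of the 5 motifs searched was found.
ATF3, chr1:212565259-212565316, plus strand: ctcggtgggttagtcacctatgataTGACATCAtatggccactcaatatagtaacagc
MAFF, chr22:38201915-38201972, plus strand: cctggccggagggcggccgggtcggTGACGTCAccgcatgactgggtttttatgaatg
The full CRE occurs in 2 of the 10 windows, those of JUND and MAFF, and in 1.85% of all windows. Its share was 10.7% for other immediate-early genes, 8.16% for other bZIP genes, 2.17% for upstream genes and 0% for target genes.

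**Figure D2:**
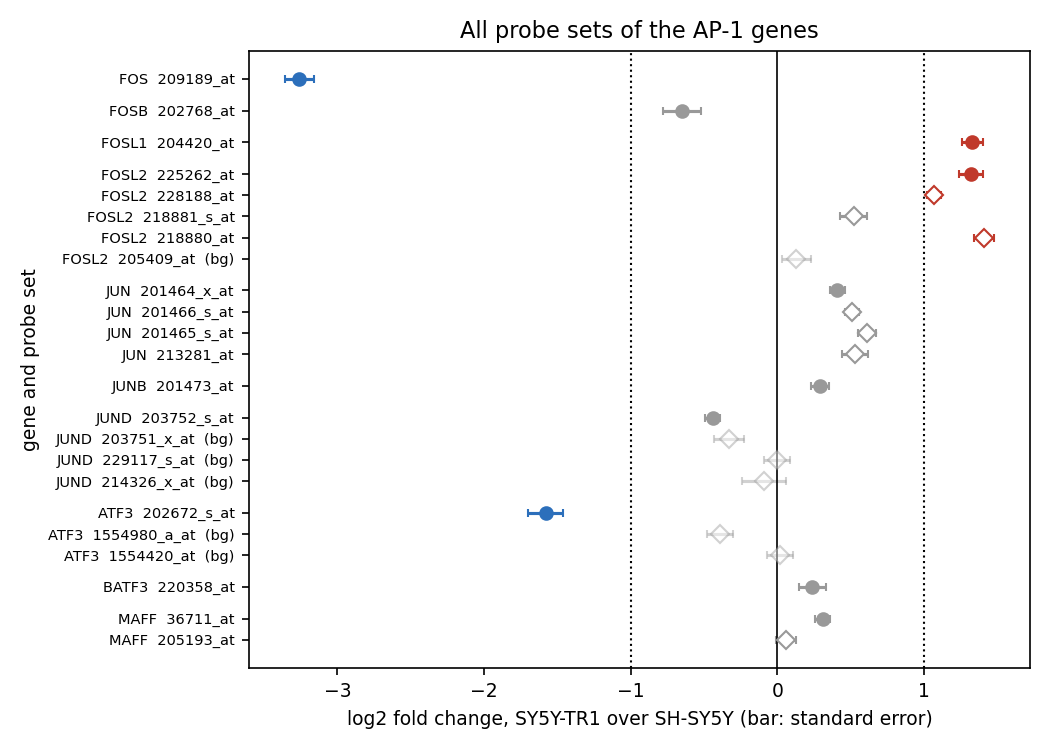
Log2 fold change (x axis, bar for the standard error) of each of the 23 probe sets of the AP-1 genes (y axis), with filled circles for the probe set that stands for its gene, open diamonds for the others, red for higher, blue for lower, grey for those that did not pass, pale symbols marked bg for those at background on all arrays, and dotted lines at the 2-fold limit. FOSL2 passes through 3 of 5 probe sets, ATF3 through 1 of 3, and the 4 JUN probe sets lie together between 0.41 and 0.61.

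Over the 23 probe sets of the 10 genes, 4 were higher, 2 lower and 17 did not pass, of which 6 lay at background on all arrays. For comparison, 8.37% of all 54613 probe sets passed in either direction. For 5 genes, FOS, FOSB, FOSL1, JUNB and BATF3, the array holds 1 probe set with a single symbol.

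AP-1 proteins act as pairs, but the pairs compared here are of RNA signals and not of proteins. Within each array, the balance between members was compared as the difference of the log2 signals of 2 genes. The level of this difference depends on the probes, and only its change between the lines is read. For 8 pairs compared, the exact permutation test over 3 against 3 arrays (two-sided) cannot give a p below 0.10, so that no pair can reach 0.05. FOSL1 over FOS moved from -2.50 ± 0.24 to 2.09 ± 0.11 (SD, n = 3 arrays each), a change of 4.58 log2 units (standard error 0.15) in which the FOS term is limited by background (exact permutation p = 0.10, 0.13 adjusted over the 8 pairs). No change was found between the 2 genes that rose, the difference of FOSL2 over FOSL1 being 2.39 ± 0.18 and 2.39 ± 0.06 (SD, n = 3 arrays each; change -0.00, standard error 0.11, exact permutation p = 1.00).

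In the JUN family, JUND read lower against both others in the resistant line. JUND over JUN went from 0.29 ± 0.01 to -0.57 ± 0.09, a relative change of 1.81-fold, and JUND over JUNB from 3.95 ± 0.07 to 3.22 ± 0.06, a relative change of 1.66-fold (SD, n = 3 arrays each; exact permutation p = 0.10 for each, 0.13 adjusted). JUNB over JUN changed by -0.13 (standard error 0.09, exact permutation p = 0.30), and the lines overlapped. The change was -0.91 (standard error 0.07) for JUN over FOSL1, a relative change of 1.88-fold in favor of FOSL1. It was 1.82 (standard error 0.21) for BATF3 over ATF3 and 2.61 (standard error 0.25) for FOSB over FOS, the last of these with FOSB and FOS both at background in SY5Y-TR1 cells. In 6 of the 8 pairs the arrays of the lines did not overlap, but no share over other pairs of genes was computed. Each of the 10 genes by itself already separated the lines, as did 59.8% of all genes, so that this count is only a description.

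**Figure D3:**
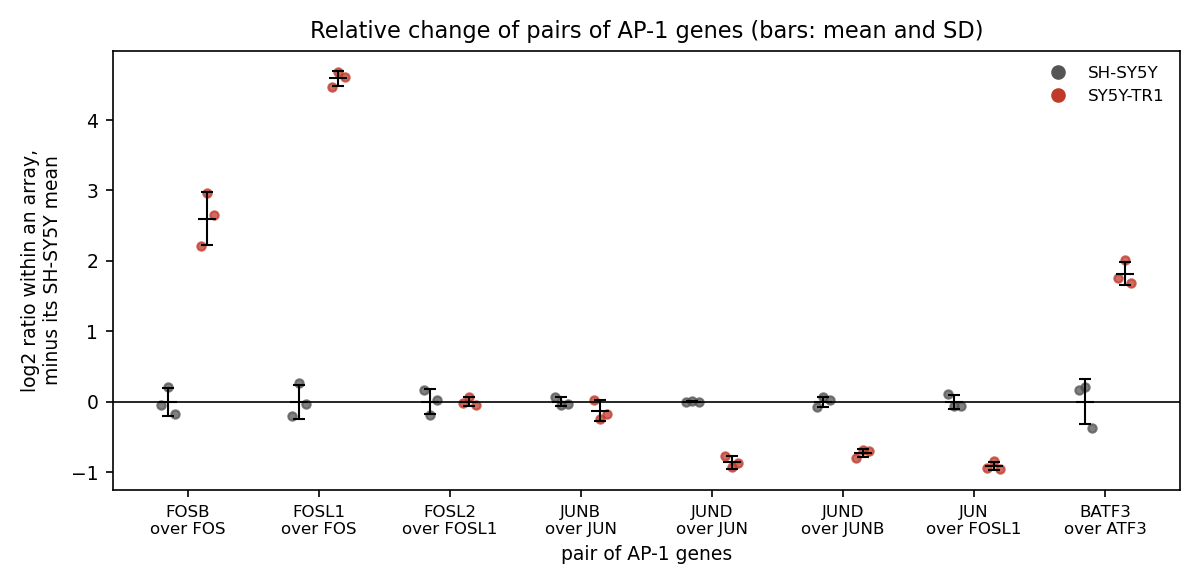
Difference of the log2 signals of 2 AP-1 genes within an array, minus its mean over the SH-SY5Y arrays (y axis), for 8 pairs (x axis), on 3 SH-SY5Y arrays (grey) and 3 SY5Y-TR1 arrays (red), with mean and SD as bars. FOSL1 over FOS lies 4.58 log2 units higher in SY5Y-TR1 cells, FOSL2 over FOSL1 overlaps between the lines, and JUND lies lower against JUN and JUNB.

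For the largest increase and the largest decrease of the set, the genes with the most similar pattern were sought among 11312 genes above background on at least 3 arrays. The pattern of FOSL1 was most like that of MECOM, SCUBE3 and MSX1, with Pearson's r of 0.9993, 0.9991 and 0.9991 over the 6 arrays. Their means in SH-SY5Y cells, 5.36, 4.55 and 5.23, lay under the background level, and those in SY5Y-TR1 cells were 6.67, 9.77 and 10.45. That of FOS was most like GABPB1, DHRS13 and PLCL1, with r of 0.9998, 0.9998 and 0.9997 and log2 fold changes of -0.96, -1.64 and -2.09. The 6 arrays fall into 2 lines, so that any gene that differs between the lines with little spread has a high r, as the 1091 genes for FOSL1 and 1771 genes for FOS with r over 0.99 show. The values are a description of these arrays.

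Among other bZIP genes, which can pair or compete with AP-1, CREB3L1 was higher and CREB5 and BACH2 were lower. Of 26 measured relatives, 1 was higher, 2 were lower and 23 did not pass, beside 5.36% higher and 5.99% lower over all genes, and their median log2 fold change was 0.13. CREB3L1, a membrane-bound factor of collagen-secreting cells, read 5.81, 5.81 and 5.57 in SH-SY5Y cells and 8.31, 8.35 and 8.35 in SY5Y-TR1 cells, at least 3.99-fold higher (limma adjusted p = 1.93e-07), through 1 of 2 probe sets. CREB5, a JUN partner of the ATF2 group, read 8.60, 8.68 and 8.65 against 5.79, 6.23 and 6.18, at least 4.94-fold lower (limma adjusted p = 1.81e-06), through 2 of 4 probe sets. CREB3L1 was thus measured above background in the resistant line only and CREB5 in the parental line only. BACH2, a repressor that pairs with small MAF proteins, read 7.34, 6.88 and 6.96 against 6.05, 5.81 and 6.16. All its resistant arrays lay at background, and it was at least 1.65-fold lower (limma adjusted p = 0.000540). Its other probe set passed as well, and the brightest passed on a fitted difference of -1.06. This difference did not reach 2-fold without SH-SY5Y replicate 1 or without SY5Y-TR1 replicate 2, and 1 relative was then lower.

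Among the kinases that carry signals to AP-1 and the factors that switch on FOS and JUN, MAP3K1 fell and MEF2D and MAPK11 rose. Of 23 measured, 2 rose, 1 fell and 20 stayed short of the limits, beside 5.36% higher and 5.99% lower over all genes, with a median log2 fold change of 0.12. MAP3K1, a kinase upstream of JNK and ERK, read 11.81, 11.80 and 11.83 in SH-SY5Y cells and 8.57, 8.69 and 8.79 in SY5Y-TR1 cells. The lines were far apart, with little spread in either, and both probe sets passed. MAP3K1 was 8.76-fold lower (log2 fold change -3.13 with a standard error of 0.06, limma adjusted p = 5.67e-08). MEF2D, a factor that binds the JUN promoter, was 2.38-fold higher and MAPK11, the p38 beta kinase, 2.31-fold higher, each through 1 of 3 probe sets, and neither passed with the mean of all its probe sets. SRF and its partner ELK1, which act on the FOS promoter, read 8.55 ± 0.03 and 8.36 ± 0.08 in SH-SY5Y cells against 8.61 ± 0.04 and 8.54 ± 0.04 in SY5Y-TR1 cells (SD, n = 3 arrays each), and neither passed. ELK3 and ELK4, listed beside ELK1, were 1.40-fold and 1.78-fold higher (limma adjusted p = 5.42e-05 and 4.72e-06), short of the 2-fold limit.

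Among genes known from other cells to have AP-1 sites, the protease genes MMP1 and MMP3 and the chemokine gene CXCL8 were among those that rose. Of 26 measured, 17 rose, 1 fell and 8 stayed short of the limits, beside 5.36% and 5.99% of all genes, and their median log2 fold change was 1.93. The list holds AXL, which the study found by protein assays and also names from these arrays. AXL was 13.6-fold higher here, through 1 of 2 probe sets. The list was also written with results of these data known, so that its direction is not independent evidence. MMP3, the stromelysin gene, read 4.71, 5.14 and 4.88 in SH-SY5Y cells and 10.74, 10.50 and 10.70 in SY5Y-TR1 cells, at least 19.8-fold higher (limma adjusted p = 6.17e-08). CXCL8, which encodes interleukin-8, read 4.39, 4.44 and 4.66 against 8.59, 8.86 and 8.76, at least 5.27-fold higher (limma adjusted p = 9.23e-08). MMP1, the interstitial collagenase gene in whose promoter the TRE was described, read 8.03, 7.81 and 8.03 against 11.96, 11.91 and 11.92, 15.7-fold higher (limma adjusted p = 3.51e-08). MMP3 and CXCL8 were thus at background on the parental arrays, while MMP1 was measured in both lines. The exception was GJA1, which encodes a connexin of gap junctions and was 4.65-fold lower (log2 fold change -2.22 with a standard error of 0.05, limma adjusted p = 7.93e-08). MMP9, another protease with AP-1 sites, read 6.65 ± 0.02 and 6.68 ± 0.07 (SD, n = 3 arrays each) and did not pass, and MMP13 and IL6 lay at background in both lines.

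Promoter windows were found for 17 of these genes, in 21 windows, of which 8 hold a TRE (38.1%, against 7.71% of all windows), and as the list was chosen for such sites, this share is a description of the list. The stretches show the TRE, in capitals, of 3 genes that rose and of GJA1, which fell, at 137, 104, 186 and 48 bases before the start.
CXCL8, chr4:73740407-73740463, plus strand: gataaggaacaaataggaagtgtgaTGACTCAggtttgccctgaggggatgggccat
MT2A, chr16:56608455-56608511, plus strand: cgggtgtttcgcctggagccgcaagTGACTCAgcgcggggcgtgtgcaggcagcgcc
PLAUR, chr19:43670324-43670380, minus strand: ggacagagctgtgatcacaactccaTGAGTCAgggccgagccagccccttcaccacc
GJA1, chr6:121435573-121435629, plus strand: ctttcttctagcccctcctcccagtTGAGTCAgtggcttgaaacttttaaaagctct
CXCL8 is described above, MT2A, a metallothionein gene, was 7.19-fold higher, and PLAUR, the urokinase receptor gene, was 8.87-fold higher. MT2A was read by a single probe set, whose name marks shared sequence. Of the 8 genes with a TRE in a window, 5 rose, 1 fell and 2 stayed short of the limits, with a median log2 fold change of 2.2. Of the 9 genes with windows but no TRE there, 7 were higher and 2 did not pass, with a median of 2.06. The difference between these groups was not tested.

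Among other immediate-early genes, EGR1 fell, as FOS did, and KLF2 and IER3 were among those that rose. Of 28 measured, 9 rose, 1 fell and 18 stayed short of the limits, beside 5.36% higher and 5.99% lower over all genes, with a median log2 fold change of 0.59. Of those that were higher, ZFP36L1 lay at background in both lines, and the count was 7 with values raised to the background level and 6 with the mean of all probe sets. EGR1, a zinc-finger factor switched on with FOS through SRF, read 11.23, 11.10 and 11.26 in SH-SY5Y cells and 9.24, 9.26 and 9.28 in SY5Y-TR1 cells. It was 3.83-fold lower (log2 fold change -1.94 with a standard error of 0.05, limma adjusted p = 1.93e-07), through all 3 probe sets. KLF2, a zinc-finger factor of endothelial and immune cells, read 6.66, 6.55 and 6.0 against 10.08, 10.03 and 10.07, 12.6-fold higher (limma adjusted p = 1.81e-06), with 2 of the 3 parental arrays above background, while its dimmer probe set did not pass. IER3, a regulator of ERK signaling and cell survival, read 6.44, 6.88 and 6.77 against 10.27, 9.97 and 10.13, 10.8-fold higher (limma adjusted p = 7.58e-07). NR4A2, an orphan nuclear receptor, passed through all 3 probe sets (log2 fold change 1.84 with a standard error of 0.15), but its brightest was above background on only 2 of the resistant arrays and on no parental one, and no fold is given. DUSP6 and DUSP5, phosphatases that ERK activity induces and that switch ERK off, were 2.84-fold and 2.41-fold higher. The other DUSP genes of the list, DUSP1 and DUSP2, did not pass, DUSP1 being 1.79-fold higher and DUSP2 1.71-fold lower.

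**Figure D4:**
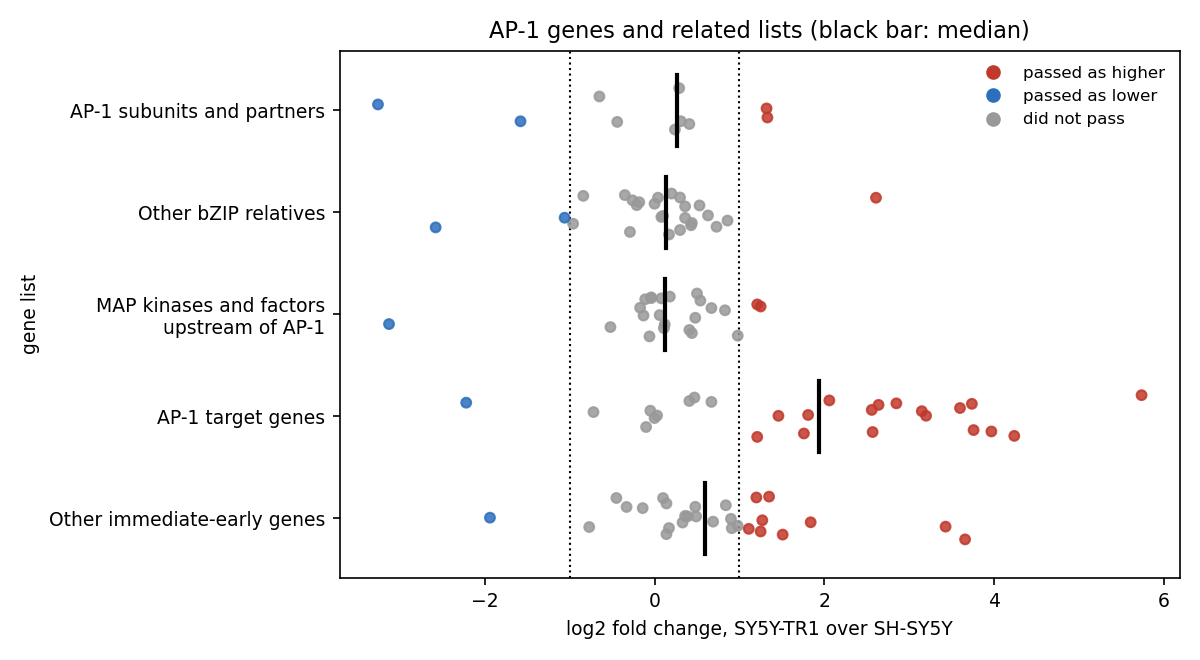
Log2 fold change (x axis) of each measured gene of the AP-1 set and of 4 related lists (y axis), with red for higher, blue for lower and grey for genes that did not pass, black bars for the median of each list, and dotted lines at the 2-fold limit; genes at background in a line are drawn at their fitted difference, which is not a bound. The medians are 0.27 for the AP-1 genes, 0.13 for other bZIP genes, 0.12 for kinases and factors upstream, 1.93 for AP-1 target genes and 0.59 for other immediate-early genes.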

How the data were processed

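The authors deposited log2 signals, which their processing notes credit to RMA in Affymetrix Expression Console (version not given in the sources used here). RMA includes background correction, quantile normalization between arrays and a summary over the probes of a set. Scanner files and scan dates were not used here. Control probe sets (62) were removed. Of the 54613 others, 41091 carried 1 symbol (41037 matched to RefSeq by Entrez number), 1801 several and 11721 none. Genes, each read by its brightest single-symbol probe set, were compared with limma 3.58.1 (lmFit, eBayes) in R 4.3.3, with Benjamini-Hochberg adjustment over 19775 genes, and probe sets in a second fit. The fit was tested on simulated data. The background level came from 35 measured of 42 listed genes, 4 of which lie above it by construction.

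The AP-1 genes, the related lists, the limits and the tests were chosen with earlier results of these data known. Named genes are all AP-1 genes, the 3 largest increases and decreases that passed in each list by fitted difference (the 2 brightest genes where fewer than 2 passed; those of the background and housekeeping lists are not described), and the 3 genes most like FOSL1 and FOS. AXL, SRF, ELK1, ELK3, ELK4, JDP2, BATF, MMP9, MMP13, IL6, MT2A, PLAUR, DUSP1, DUSP2, DUSP5, DUSP6, ZFP36L1 and TH were named after their values were seen. The same holds for PHOX2A, HAND2, GATA2, GATA3, ISL1, DBH, CD3E and MS4A1. Alternatives were other probe set rules, centring on 20 measured housekeeping genes, a second quantile normalization, filters on dim values, another variance model, a replicate block, the methods' t-test, each array left out and the adjusted p alone. Motifs were searched on both strands of 35114 RefSeq promoter windows of 300 bases.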

Additional observations from a re-analysis of the deposited data

How the results depend on the processing

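No value of the AP-1 genes changed sign under any alternative run. FOS and FOSL1 passed under every alternative. FOSL2 had a log2 fold change of 0.89 with the mean of all its probe sets and then missed the 2-fold limit, as did ATF3 at -0.65, which left 1 gene higher and 1 lower, and ATF3 at -0.39 without probe sets whose names end in _x_at or _s_at, which left 1 lower. JUND has no value there, since all its probe sets bear such names. FOSB had a log2 fold change of -0.01 (adjusted p = 0.293 from limma) once values were raised to the background level, because most of its arrays lay under it. BATF3 had adjusted p from 0.0205 to 0.162 in limma across the alternatives and stayed far under 2-fold in all.

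With each array left out in turn, 2 AP-1 genes were higher and 2 lower every time, with log2 fold changes from -3.36 to -3.19 for FOS, -0.78 to -0.49 for FOSB, 1.26 to 1.36 for FOSL1, 1.25 to 1.37 for FOSL2, 0.38 to 0.45 for JUN, 0.24 to 0.32 for JUNB, -0.45 to -0.43 for JUND, -1.65 to -1.48 for ATF3, 0.15 to 0.30 for BATF3 and 0.29 to 0.32 for MAFF. The counts in the lists stayed at 17 and 1 for target genes, 2 and 1 for upstream genes, 9 and 1 for immediate-early genes and 1 higher for bZIP relatives, of which 1 to 2 were lower, BACH2 being the one lost. Over all genes 1030 to 1082 were higher and 1172 to 1206 lower.

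Without probe sets ending in _x_at or _s_at, 10 target genes, 4 immediate-early genes and 1 upstream gene were higher, and 1 bZIP relative and 0 immediate-early genes were lower (limma, adjusted p under 0.05 and 2-fold). This setting leaves out genes read only by such probe sets. With the mean of all probe sets, 0 upstream genes and 6 immediate-early genes were higher. With values raised to background, 1 bZIP relative was lower and 7 immediate-early genes were higher. By the adjusted p alone, the counts were 5 higher and 4 lower for AP-1 genes, 11 and 8 for bZIP relatives, 11 and 4 for upstream genes, 20 and 2 for target genes, 20 and 5 for immediate-early genes, and 5634 and 4813 for all genes.

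Replicate numbers did not pair the samples, since deviations of same-numbered arrays correlated at 0 to 0.03. With the replicate block the same 4 AP-1 genes passed, FOS at -3.26 and FOSL1 at 1.33, and 1060 genes were higher and 1185 lower. The methods' t-test with Benjamini-Hochberg adjustment gave the same counts. The number of arrays and the background level limit what could be measured of FOSB, and of FOS and ATF3 in SY5Y-TR1 cells.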
